A study of Danio rerio with 2 samples.

Results

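The 6 genes described here are the POMC genes and stress-axis receptors of the zebrafish pituitary: pomca, pomcb, oacyl, crhr1, avpr1ab and nr3c1. They were chosen by name from 32057 listed genes and were followed in 8310 pituitary cells. Of the 6, 5 are listed by symbol (pomca ENSDARG00000043135, pomcb ENSDARG00000069307, CRHR1 ENSDARG00000003989, avpr1ab ENSDARG00000045788 and nr3c1 ENSDARG00000025032), and 1, oacyl, is listed only by its identifier ENSDARG00000075191 and takes its name from a table that pairs identifiers with symbols. Cells in which pomca made up 1% or more of all UMIs (unique molecular identifiers, each the tag of 1 captured RNA molecule) are called POMC cells below, and there were 318 of them.

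Pro-opiomelanocortin (POMC) is a precursor protein that endocrine cells cut into smaller hormones. In vertebrate pituitaries, corticotropes cut it to adrenocorticotropic hormone, the signal that makes steroid-producing cells release cortisol, and melanotropes cut it further to alpha-melanocyte-stimulating hormone. Hypothalamic corticotropin-releasing hormone acts on corticotropes through its receptor Crhr1, vasopressin-family peptides through V1-type receptors, and cortisol feeds back on the same cells through the glucocorticoid receptor, which nr3c1 encodes.

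Pituitaries were taken from 6-month-old male zebrafish that carried CRISPR/Cas9-made mutations in both cholecystokinin genes (labelled CCK1/2-KO, genotype cck1-/-;cck2-/-, called mutant here) and from 6-month-old wild-type (WT) males, 30 fish per group. Each group gave 1 droplet single-cell library from pooled tissue, so a difference between the libraries has no replicate check, cannot be told apart from a difference between 2 dissections or 2 runs, and is given without a p-value. All intervals below are 95% intervals that cover counting error only.

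The mutant library held 3755 barcodes and 15910570 UMIs, and 3452 cells with a median of 982 UMIs were kept. The WT library held 5236 barcodes and 22358017 UMIs, and 4858 cells with a median of 882 UMIs were kept. The libraries shared 9 barcodes among the kept cells. For 1 of the targeted genes, ccka, matched by its symbol, 14 UMIs were counted in 12 mutant barcodes against 144 UMIs in 14 WT barcodes, of which 122 lay in 1 barcode, so that it checks neither label. The other targeted gene was not analysed here. Free RNA was present, since pomca had a UMI in 51.2% of all mutant cells and 68.4% of all WT cells. The cells fell into 32 clusters built without hormone genes or the 6 genes.

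POMC cells made up 79 of 3452 mutant cells (2.29%, 1.82 to 2.84%) and 239 of 4858 WT cells (4.92%, 4.33 to 5.57%). In the mutant library they were the deeper cells, with a median of 6165 UMIs, against 1861 UMIs in the WT library. Within a POMC cell pomca took from 1.11 to 28.2% of the UMIs (median 9.22%) in the mutant library, and from 1.01 to 42.3% (median 4.76%) in the WT library. In cluster 11, described below, the median was 9.83% in its 67 mutant and 6.27% in its 143 WT POMC cells. Over 10% pomca there were 35 mutant and 49 WT cells in all. Close to the limit, 2 mutant and 11 WT cells held 1 to 1.2% pomca, and 3 mutant and 27 WT cells held 0.8 to 1% and were left out. The share moved with the limit and the cell filter. It was 3.51% of mutant and 9.24% of WT cells at 0.5% pomca or more, and 1.77% (61 cells) and 2.41% (117 cells) at 5% or more. Among cells with 500 genes or more it was 4.14% of mutant and 9.02% of WT cells. Of all pomca UMIs, 96.2% in the mutant and 95.1% in the WT library lay in POMC cells.

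The POMC cells were spread over clusters differently in the 2 libraries. Cluster 11, the cluster with the highest pomca level and called the pomca cluster here, held 67 of the 79 mutant POMC cells and 143 of the 239 WT POMC cells. In it 4 of the 7 POMC cell markers looked for (pomca, tbx19, neurod1 and pcsk1) were detected above other cells, but none was among its 10 leading genes by fold, so it was given no cell type name. Cluster 14, whose leading genes include smtla, GALR1 and dio2, was given no name either, since 3 markers each of somatolactotropes (smtla, smtlb and pou1f1), POMC cells (pomca, pax7a and ascl1a) and neurons (snap25a, elavl3 and gap43) were detected above other cells. It held 3 mutant and 14 WT POMC cells. A shallow cluster of 1 mutant and 35 WT cells held 34 WT POMC cells, and the macrophage or microglia-like cluster held 19 WT POMC cells, while neither held any mutant POMC cell. The median depth of those 34 and 19 WT cells was 1258.5 and 799 UMIs, and their median pomca share was 4.13% and 1.42%. In the shallow cluster 2 of the 7 POMC cell markers (pomca and neurod1) were detected above other cells. So were 2 epithelial markers (krt4 and epcam). Over all POMC cells, not split by cluster, markers of other cells also differed between the libraries. The summed level of 7 other hormone genes was 2969 CPM (UMIs of a gene per 1000000 UMIs of the cells summed) in mutant and 7329 in WT POMC cells. That of 7 red blood cell gene listings was 3596 in mutant and 10406 in WT POMC cells. The 6 macrophage or microglia markers summed to 19.5 CPM in mutant and 129.8 in WT POMC cells. The part of these markers in the WT share was not tested, and without those 2 clusters the WT share was 4.0%.

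**Figure D1:**
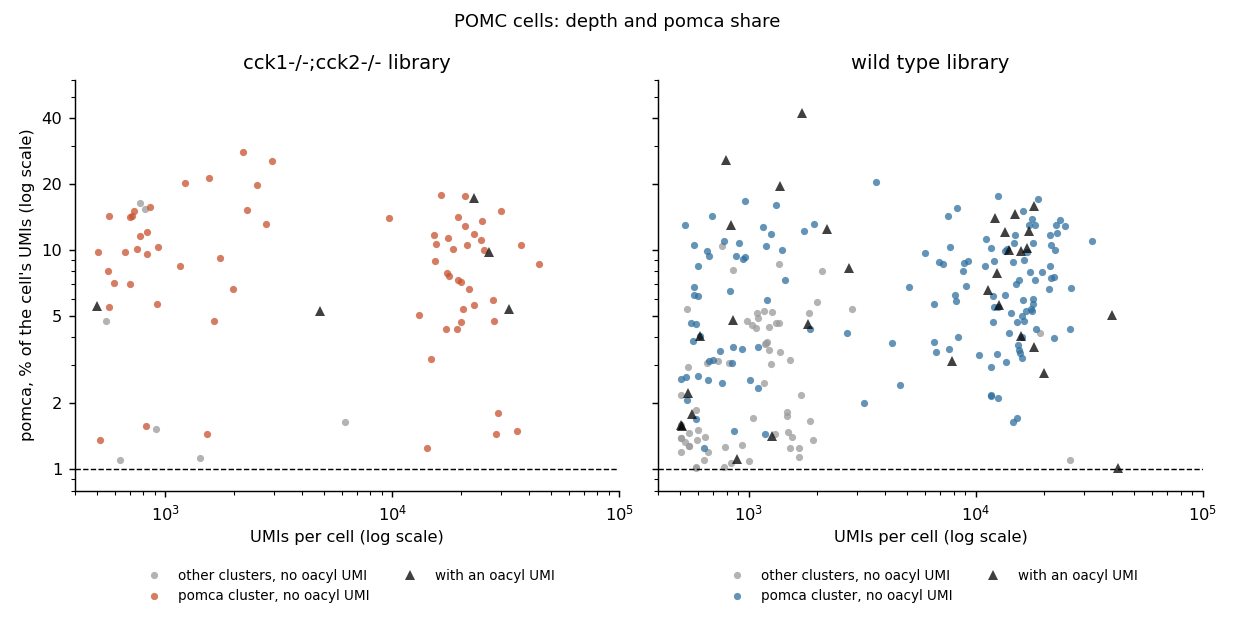
Each point is 1 POMC cell, with its UMIs on the horizontal axis and the percent of them from pomca on the vertical axis, both on log scales, in the mutant library (left) and the WT library (right). Coloured points lie in the pomca cluster, grey points in other clusters and black triangles have an oacyl UMI, and the dashed line marks the 1% limit. The WT library has 34 and 19 grey or black points from the shallow and the macrophage or microglia-like cluster, none above 2865 UMIs, that have no mutant counterpart.

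pomca, the zebrafish gene for the hormone precursor, stood at 86472 (85872 to 87074) CPM in mutant POMC cells and 74378 (73979.8 to 74778) in WT POMC cells, which the limit of 1% set in part and which is given as a description. All other cells held 218 CPM in the mutant and 348 in the WT library. In the red blood cell-like cluster (red blood cells below), which should lack pomca, the level was 70.8 in mutant and 152 in WT cells, a measure of the free RNA in each library. The cluster highest for gh1, the growth hormone gene, held 80.5 and 124, the cluster highest for prl, the prolactin gene, 71.4 and 153, and the gonadotrope-like cluster 71.9 and 151 CPM in mutant and WT cells. These levels were close to those of red blood cells of the same library, and no pomca expression beyond free RNA was detectable in them. Behind the pomca cluster (85868 in mutant and 77172 in WT cells) came cluster 14 with 7845 and 17413 CPM, and cluster 12, led by stra6, mid1ip1a and plekhs1.3, with 3741 and 4193. A few cells carried these levels. In cluster 14, 3 mutant and 14 WT POMC cells held 5981 and 18767 pomca UMIs. Its other 47 and 89 cells held 252 and 190 (343 and 211 CPM), and 1 of these mutant cells held 185 of the 252. Cluster 12 had 3 mutant and 7 WT POMC cells among 70 and 116 cells, and 1 mutant cell held 2614 pomca UMIs.

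pomcb, the second zebrafish POMC gene, was close to absent. It had 1 UMI among all 15910570 UMIs of the mutant library and 1 UMI among all 22358017 UMIs of the WT library, and neither lay in a POMC cell. At 0 of 79 mutant and 0 of 239 WT POMC cells, a count of 0 allows a share of cells with a UMI of up to 3.80% and 1.26% (3 cells of the total), and a summed level of up to 3.25 and 1.67 CPM. This does not limit the share of cells that express the gene, since many POMC cells were shallow.

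oacyl, named as an O-acyltransferase, had most of its UMIs in POMC cells but was present in few of them. POMC cells held 326 of 356 oacyl UMIs (91.6%) in the mutant library and 848 of 908 (93.4%) in the WT library. It was detected in 5 of 79 mutant POMC cells (6.33%, 2.09 to 14.2%) and 32 of 239 WT POMC cells (13.4%, 9.34 to 18.4%). Inside and outside POMC cells together, 21 mutant and 74 WT cells had an oacyl UMI. At a limit of 0.5% pomca it was detected in 4.96% of mutant and 8.02% of WT cells. The oacyl-positive cells lay in partly different clusters: 3 mutant and 14 WT cells in cluster 14, 1 and 4 in cluster 12, 1 and 5 in cluster 6 (led by gh1), 0 and 7 in the macrophage or microglia-like cluster and 0 and 2 in the pomca cluster. Its level was 354 (316 to 394) CPM in mutant and 473 (441 to 505) in WT POMC cells, against 2.08 and 3.01 in all other cells. In red blood cells of median depth 12336 and 8806 UMIs, 1 of 118 mutant and 4 of 520 WT cells had an oacyl UMI. A few cells carried most of it: the 5 mutant cells held 133, 99, 75, 15 and 4 oacyl UMIs, and the 32 WT cells held from 1 to 106 (median 6.50), with 10 at a single UMI. With 5 or more oacyl UMIs there were 4 mutant and 19 WT POMC cells, which held 322 and 830 of the oacyl UMIs, and outside POMC cells there was 1 such cell in the mutant and 1 in the WT library.

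The pomca cluster itself had almost no oacyl, with 0 UMIs in its 67 mutant cells and 2 UMIs in its 148 WT cells. oacyl was highest in cluster 14, at 327 (289 to 369.5) CPM in mutant and 619 (573 to 668) in WT cells, and next in cluster 12, at 103 (81.9 to 128) and 138 (117 to 161). In cluster 12, 1 mutant POMC cell held 75 oacyl UMIs and 4 WT POMC cells held 146. All 3 mutant and all 14 WT POMC cells of cluster 14 carried oacyl, with 247 and 662 UMIs, while the 47 mutant and 89 WT cells of that cluster below the pomca limit held 13 and 12. smtla, the somatolactin gene that leads the cluster, had a lower summed level in those POMC cells, with 0 mutant and 4 WT UMIs (0 and 21.1 CPM). The rest of the cluster held 401 and 310 UMIs (546 and 345 CPM), with up to 248 and 72 in a cell. The share of WT cells with smtla was similar, at 3 of 14 POMC cells and 17 of 89 other cells. In the mutant library it was found in 0 of 3 POMC cells and 10 of 47 other cells, too few POMC cells to compare shares. pax7a, a paired-box transcription factor gene, was at 2688 CPM in the mutant and 955 in the WT POMC cells of cluster 14, and at 94.0 and 83.4 in its other cells.

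Cell by cell, the 5 oacyl-positive mutant cells, from the most oacyl to the least, held 22951, 32536, 26754, 4788 and 501 UMIs in all, of which 3973, 1755, 2614, 253 and 28 were pomca. The same cells held 114, 38, 54, 10 and 0 UMIs of pax7a and 7, 11, 33, 1 and 0 of pcsk2, the gene of prohormone convertase 2. They held 18, 2, 6, 0 and 1 UMIs of crhr1 and 0, 2, 7, 1 and 0 of nr3c1. The 4 cells with the most oacyl thus each carried pax7a and pcsk2, and the last, the shallowest, carried neither. Among the 19 WT POMC cells with 5 or more oacyl UMIs, of median depth 14070 UMIs, 16 had pax7a, 14 pcsk2, 14 crhr1 and 12 nr3c1.

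crhr1, the receptor for corticotropin-releasing hormone, was higher in POMC cells than in all other cells in each library: 393 (353 to 435) against 65.3 (61.2 to 69.6) CPM in the mutant and 403 (375 to 434) against 35.8 (33.2 to 38.5) in the WT library. The log2 ratio of POMC cells to other cells was 2.59 (95% interval 2.41 to 2.76) in the mutant and 3.49 (95% interval 3.34 to 3.65) in the WT library, beside a difference between the libraries in other cells. A UMI was found in 46 of 79 mutant POMC cells (58.2%, 46.6 to 69.2%) and 126 of 239 WT POMC cells (52.7%, 46.2 to 59.2%), and in 0 of 118 mutant and 3 of 520 WT red blood cells, which were deeper. Thinned to 1000 UMIs a cell, the expected shares were 26.5% of 54 mutant and 26.8% of 166 WT POMC cells, the shallower cells being left out. Among POMC cells of 5000 UMIs or more, 37 of 40 mutant and 95 of 106 WT cells had crhr1.

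Across clusters with 20 or more cells in each library, crhr1 was highest in the pomca cluster, at 407 (364 to 453) CPM in mutant and 416 (382 to 451) in WT cells. The cluster highest for gh1 held 233 (215 to 252) in mutant and 89.6 (79.4 to 101) in WT cells, a log2 ratio of 1.38 (95% interval 1.17 to 1.59), past 2-fold. In that cluster 17.4% of the 7745 genes with 50 UMIs or more were past 2-fold higher in the mutant library and 3.07% past 2-fold lower, with a median log2 ratio of 0.39 over all of them. gh1 with the other 6 hormone genes stood at 152796 CPM in mutant cells, against 313046 in WT cells. The crhr1 ratio was larger than the shift of all genes, and the part of the hormone share in it was not tested. The cluster highest for prl showed no such difference, with 118 (85.5 to 159) in mutant and 118 (94.8 to 144) in WT cells, a log2 ratio of 0.01 (-0.55 to 0.54). Cluster 20, led by the neutrophil genes lyz and mpx, held 106 (59.1 to 174) in 22 mutant cells and 298 (223 to 389) in 39 WT cells, from 5 and 7 cells with a UMI. The gonadotrope-like cluster held 30.8 (14.1 to 58.5) and 22.0 (14.2 to 32.4) in mutant and WT cells.

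nr3c1, the glucocorticoid receptor gene, was found in every cluster of 20 or more cells and highest in the pomca cluster. POMC cells held 477 (434 to 524) CPM in the mutant and 773 (733 to 815) in the WT library, against 149 and 129.8 in all other cells, with log2 ratios of POMC to other cells of 1.68 and 2.57. Within the pomca cluster it was 521 (473 to 573) in mutant and 959.6 (909 to 1013) in WT cells. Next came cluster 19, led by immunoglobulin genes, with 437 (372 to 511) in mutant and 556 (434 to 703) in WT cells, and the T or NK-like cluster, with 286 (246 to 329) and 339 (296 to 386). In the mutant library the pomca cluster and cluster 19 did not differ beyond their intervals, whereas in the WT library they did. The cluster highest for gh1 held 194 (178 to 212) in mutant and 172 (158 to 187) in WT cells, and the lowest named level was that of red blood cells, at 47.4 (36.6 to 60.4) and 57.2 (50.5 to 64.5). A UMI was found in 46 of 79 mutant POMC cells (58.2%, 46.6 to 69.2%) and 135 of 239 WT POMC cells (56.5%, 49.9 to 62.9%), and in 36 of 118 mutant and 155 of 520 WT red blood cells. Thinned to 1000 UMIs, the shares were 27.4% in mutant and 40.6% in WT POMC cells, and 4.81% and 5.13% in red blood cells.

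avpr1ab, a V1-type receptor for vasotocin, the fish vasopressin, was nearly undetected. It had 3 UMIs in 3 mutant cells and 11 UMIs in 3 WT cells, none of them POMC cells. Over all barcodes it had 9 UMIs in 4 mutant barcodes, 6 of them in 1 barcode that was not kept, and 11 UMIs in 3 WT barcodes. In the WT library 8 of the UMIs lay in 1 endothelial-like cell, 2 in 1 gonadotrope-like cell and 1 in 1 mesenchymal-like cell, and in the mutant library 2 lay in 2 mesenchymal-like cells and 1 in a cell of a small unnamed cluster. For POMC cells the count of 0 allows up to 3.25 CPM in the mutant and 1.67 in the WT library. The paralog avpr1aa, likewise a V1-type receptor gene, had 0 UMIs in POMC cells and 44 mutant and 37 WT UMIs elsewhere.

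**Figure D2:**
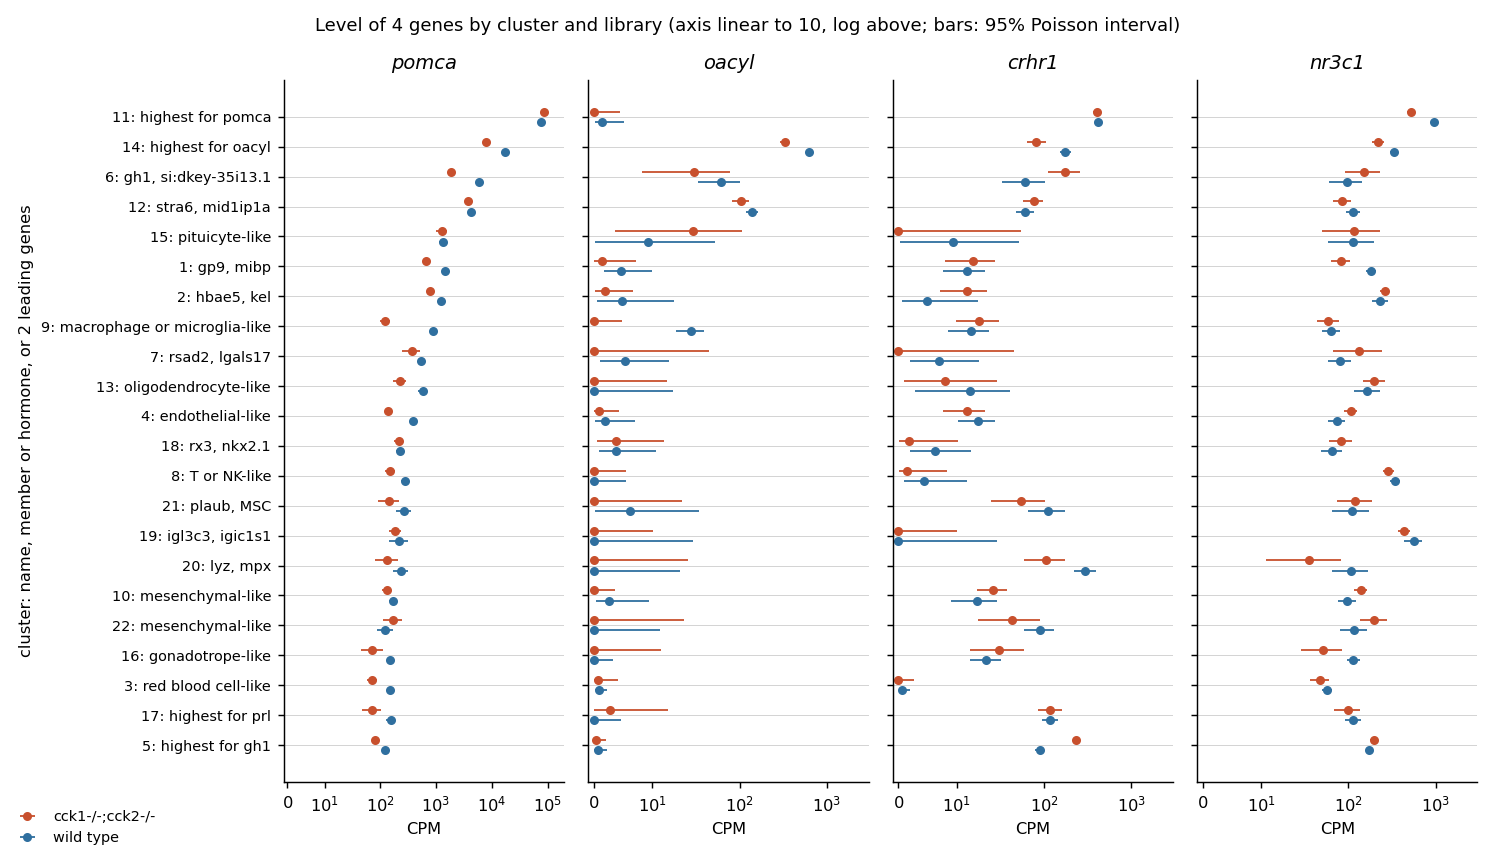
CPM (horizontal axes, linear to 10 and log above) of pomca, oacyl, crhr1 and nr3c1 in the 22 clusters with 20 or more cells in each library (rows, ordered by pomca), with the mutant library above the WT library in each row and bars for 95% Poisson intervals. pomca, crhr1 and nr3c1 are highest in cluster 11, where oacyl has 0 mutant and 2 WT UMIs, and oacyl is highest in cluster 14.

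Each of the 2 receptors was detected most often in the deepest POMC cells. crhr1 had a UMI in 5 of 25 mutant and 15 of 73 WT POMC cells under 1000 UMIs, in 4 of 14 and 16 of 60 of 1000 UMIs or more but under 5000, and in 37 of 40 and 95 of 106 of 5000 UMIs or more. nr3c1 had a UMI in 7 of 25, 3 of 14 and 36 of 40 mutant cells of those depths, and in 13 of 73, 20 of 60 and 102 of 106 WT cells. At 5000 UMIs or more, nr3c1 was found in 35 of 37 mutant and 91 of 95 WT cells that had crhr1, and in 1 of 3 mutant and 11 of 11 WT cells that had none. Of all POMC cells of that depth, 35 of 40 mutant and 91 of 106 WT cells had a UMI of both receptors. Under 1000 UMIs, 0 of 5 mutant and 4 of 15 WT cells with crhr1 had nr3c1. Of 1000 UMIs or more but under 5000, 0 of 4 and 9 of 16 had it. Depth also differed between clusters, with a median of 9104 UMIs in WT POMC cells of the pomca cluster and 799 in the macrophage or microglia-like cluster. The parts of depth and cluster were not tested. oacyl changed little with depth, at 1 of 25, 1 of 14 and 3 of 40 mutant cells and 9 of 73, 6 of 60 and 17 of 106 WT cells. All of oacyl, crhr1 and nr3c1 were found in 2 mutant and 13 WT POMC cells.

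**Figure D3:**
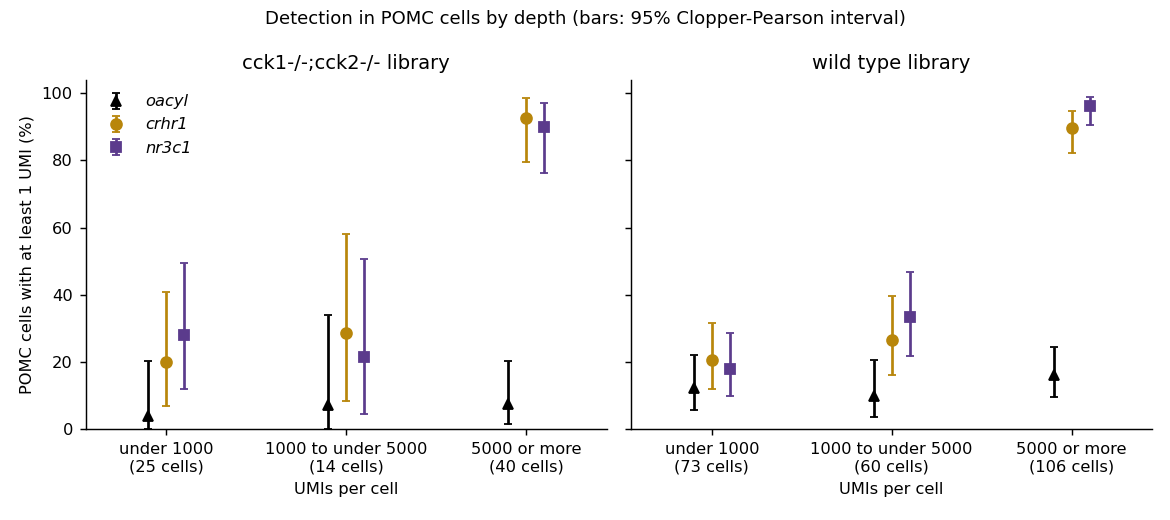
Percent of POMC cells with at least 1 UMI of oacyl, crhr1 and nr3c1 (vertical axis) by UMIs per cell (horizontal axis) in the mutant library (left) and the WT library (right), with bars for 95% Clopper-Pearson intervals. crhr1 and nr3c1 reach 37 of 40 and 36 of 40 of the deepest mutant cells and 95 of 106 and 102 of 106 of the deepest WT cells, while oacyl stays at 3 of 40 and 17 of 106.

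POMC cells with and without oacyl differed in both libraries in the genes that they carried beside it. nr3c1 was at 114 CPM in the 5 oacyl-positive and 515 in the 74 oacyl-negative mutant POMC cells, a log2 ratio of -2.17 (95% interval -3.24 to -1.28). It was at 159 in the 32 oacyl-positive and 907 in the 207 oacyl-negative WT POMC cells, a log2 ratio of -2.51 (95% interval -2.94 to -2.11). In cells of 5000 UMIs or more, the lowest, median and highest nr3c1 value was 0, 0.615 and 2.62 UMIs per 10000 in 3 oacyl-positive and 0, 4.31 and 19.0 in 37 oacyl-negative mutant cells. In WT cells of that depth it was 0, 0.994 and 6.06 in 17 oacyl-positive and 0, 7.52 and 43.4 in 89 oacyl-negative cells, so the ranges overlapped while the medians stood apart. crhr1 did not follow, with 308 in oacyl-positive and 401 in oacyl-negative mutant cells (log2 -0.38 (-1.0 to 0.19)) and 483 and 386 in WT cells (log2 0.32 (0.06 to 0.58)). In the WT library 1 oacyl-positive cell held 37 of the 155 crhr1 UMIs of the 32 oacyl-positive cells. Of the 3 members not used for the split that were tested, 1, nr3c1, was past 2-fold lower in each library, beside 32.9% of all genes in the mutant and 22.4% in the WT library, and none was past 2-fold higher, beside 9.69% and 10.1%. The medians of all genes in this comparison were -0.49 and -0.24.

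Among the listed POMC lineage factors, pax7a was at 2468 CPM in oacyl-positive and 2.40 in oacyl-negative mutant POMC cells, and at 692 and 2.71 in WT POMC cells. In the other direction, tbx19, the T-box factor that in mouse drives POMC transcription, was at 11.4 in oacyl-positive and 115 in oacyl-negative mutant cells and at 9.35 and 59.0 in WT cells, from 1 and 3 UMIs in the oacyl-positive cells. neurod1, a basic helix-loop-helix factor gene, was at 149 and 1187 in oacyl-positive and oacyl-negative mutant cells and at 265 and 707 in WT cells. pitx3 was past 2-fold lower with oacyl in the WT library alone, with log2 ratios of 0.09 in the mutant and -1.33 in the WT library. ascl1a and nr4a1 were past 2-fold higher in the WT library (2.30 and 2.38), against 0.73 and 0.68 in the mutant library. The difference of these ratios between libraries was not tested.

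The prohormone convertases differed along the same line. pcsk2, which encodes prohormone convertase 2, had 52 UMIs in oacyl-positive and 2 in oacyl-negative mutant POMC cells (594 and 2.40 CPM), and 270 and 3 in WT POMC cells (842 and 2.04). pcsk1, which encodes prohormone convertase 1, had 1 and 259 UMIs in oacyl-positive and oacyl-negative mutant cells (11.4 and 310.3 CPM) and 10 and 255 in WT cells (31.2 and 173). In mammals, Pax7 and prohormone convertase 2 are features of melanotropes, and Tbx19 is shared by both POMC lineages. No cell type name was given to these zebrafish cells. cpe, the carboxypeptidase that trims cut prohormones, differed little, with log2 ratios of -0.43 in the mutant and -0.22 in the WT library, and scg5 (ENSDARG00000032126), a helper of prohormone convertase 2, was at 1.43 and 0.91. A second gene listed as scg5, ENSDARG00000077045, was at 767 CPM with and 149 without oacyl in WT cells. It had 0 UMIs in mutant POMC cells. Of the list, 2 genes were past 2-fold higher and 3 lower of 8 tested in the mutant library (median -0.43), and 3 higher and 1 lower of 9 in the WT library (median 0.57). Of all genes, 9.69% were higher and 32.9% lower in the mutant and 10.1% and 22.4% in the WT library.

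Among genes around the glucocorticoid receptor, hsd11b2 and fkbp5 were past 2-fold in both libraries. hsd11b2, whose enzyme inactivates cortisol, was at 80.0 CPM in oacyl-positive and 752 in oacyl-negative mutant cells, and at 46.8 and 423 in WT cells. fkbp5, a co-chaperone of the receptor that glucocorticoids induce in many tissues, was higher with oacyl, at 834 and 26.4 in mutant and 218 and 65.1 in WT oacyl-positive and oacyl-negative cells. nr3c2, the mineralocorticoid receptor gene, had log2 ratios of -1.36 (-2.38 to -0.50) in the mutant and -0.43 (-0.93 to 0.03) in the WT library, and fkbp4 of 0.00 and -0.03. The dopamine receptor genes drd2a and drd2b, whose mammalian counterpart restrains melanotropes, had 13 and 25 UMIs in the 5 oacyl-positive and 36 and 9 in the 74 oacyl-negative mutant cells, under the 50 UMIs asked of a tested gene. In WT cells drd2a was at 125 with and 27.1 without oacyl and drd2b at 62.3 and 23.1, both past 2-fold higher. Of the glucocorticoid receptor partners and response genes, 2 were past 2-fold higher and 3 lower of 7 tested in the mutant library, and 1 higher and 1 lower of 7 in the WT library, beside the shares of all genes given above. The list medians were -0.40 and -0.03, and 5 of the 7 were within 2-fold in WT cells. The mutant values rest on 5 cells, 3 of them of 5000 UMIs or more, and the other hormone genes summed to 399.9 CPM in oacyl-positive and 3238 in oacyl-negative mutant cells and to 5374 and 7755 in WT cells.

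**Figure D4:**
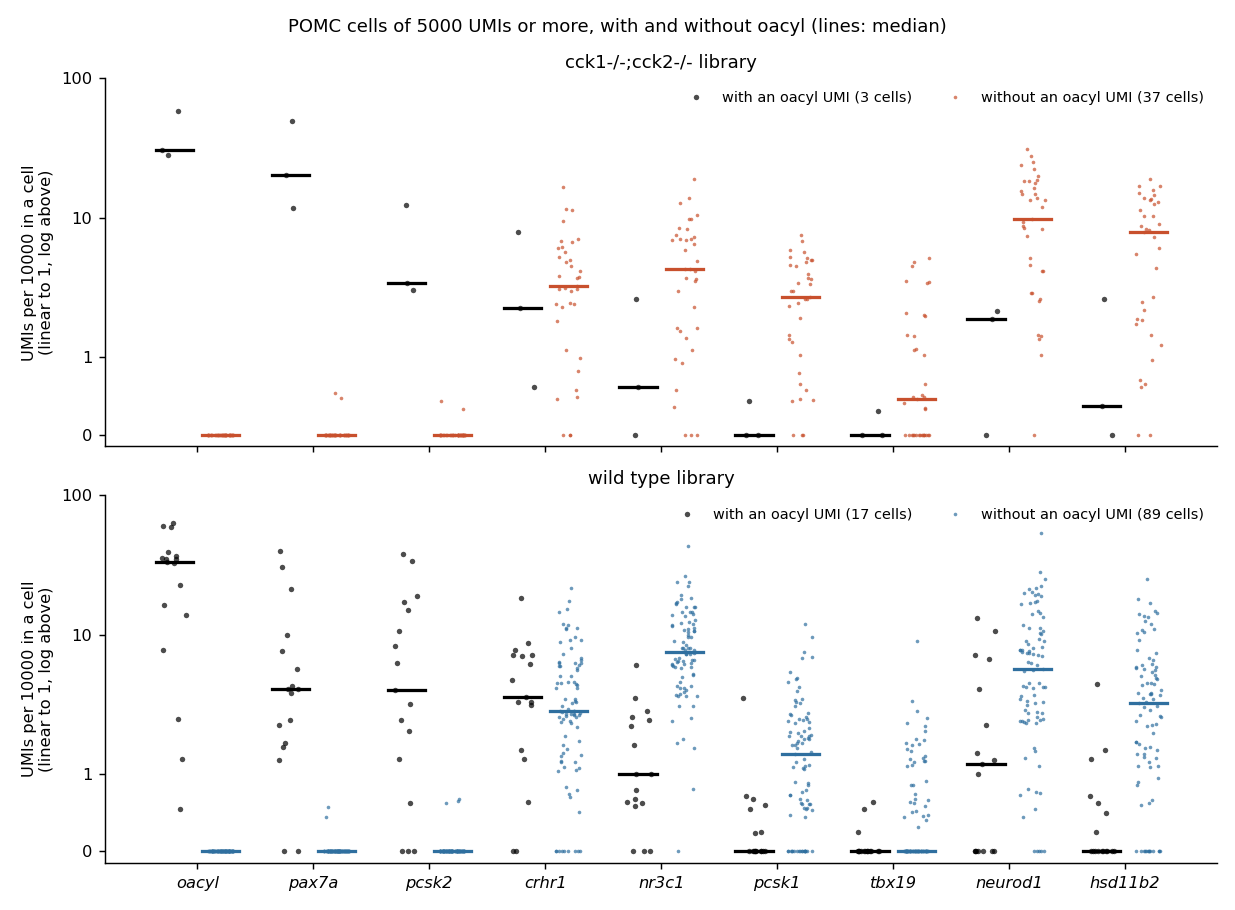
UMIs per 10000 UMIs of each POMC cell of 5000 UMIs or more (vertical axes, linear to 1 and log above) for 9 genes, in the mutant library (top) and the WT library (bottom). Black points are cells with an oacyl UMI, coloured points cells without, and lines are medians. nr3c1 has a median of 0.615 with and 4.31 without oacyl in mutant cells and 0.994 and 7.52 in WT cells, while crhr1 has 2.24 and 3.25 in mutant and 3.54 and 2.83 in WT cells.

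Set against all other cells, oacyl, crhr1 and nr3c1 were each past 2-fold higher in POMC cells of both libraries, beside 20.6% of 13644 genes in the mutant and 24.5% of 14251 genes in the WT library, and none was past 2-fold lower, beside 24.7% and 20.2%. Of the POMC lineage factors, 5 of 10 tested listings were past 2-fold higher and 2 lower in the mutant library and 5 higher and 3 lower of 10 in the WT library, with tbx19 at 105 in POMC and 4.22 in other mutant cells and 50.2 and 2.46 in WT cells. Of the prohormone processing genes, 7 of 8 in the mutant and 8 of 9 in the WT library were past 2-fold higher and none lower. The other cells take in all non-hormone cells too. In the WT library scg3 was at 5424 CPM in POMC cells, 12903 where prl was highest and 17612 in the gonadotrope-like cluster. In the same order pcsk1 was at 148, 3.83 and 0.88. The stress-axis ligands and receptors were mostly too low to test, with 6 of 25 listings tested in the mutant and 5 in the WT library, of which 3 and 2 were past 2-fold higher. In the WT library these were drd2a and drd2b (log2 1.46 and 1.42). Of the same list crhr2 (ENSDARG00000092918), a second receptor of the same hormone family, had 19 UMIs in mutant and 6 in WT POMC cells. It was not tested in the WT library. crhbp, whose protein binds corticotropin-releasing hormone, had 10 and 13 UMIs. In the WT library crhbp was at 7.24 CPM in POMC and 10.7 in other cells. Of the glucocorticoid receptor partners and response genes, 2 of 10 were past 2-fold higher and 4 lower in the mutant library, and 4 and 4 of 10 in the WT library. hsd11b2 was at 689 in POMC and 30.2 in other mutant cells and 356 and 18.3 in WT cells, and nr3c2 at 304 and 92.9 in mutant and 177 and 61.9 in WT cells. socs3a and dusp1, both feedback regulators of signalling, were past 2-fold lower in POMC cells, with log2 ratios of -3.52 and -2.05 in the mutant and -2.38 and -1.40 in the WT library. In the WT library socs3a was at 162 CPM in POMC cells, 160 where prl was highest and 66.7 in the gonadotrope-like cluster. In the same order nr3c2 was at 177, 473 and 49.2.

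Between the libraries no member was past 2-fold in POMC cells, beside 4.59% of 6363 genes past 2-fold higher and 5.36% lower in the mutant library. nr3c1 had the lowest ratio of the 4 tested members: 477 CPM (95% interval 434 to 524) in mutant and 773 (733 to 815) in WT POMC cells, a log2 ratio of -0.70 (95% interval -0.85 to -0.54). In the pomca cluster alone the ratio was -0.88 (95% interval -1.04 to -0.73), and the median of cells of 5000 UMIs or more without oacyl was 4.31 UMIs per 10000 in mutant and 7.52 in WT cells, with overlapping ranges. oacyl had a log2 ratio of -0.42 (-0.61 to -0.23), which became -0.96 without the cell of each library that held the most oacyl UMIs, and pomca of 0.22 (0.20 to 0.23), while crhr1 was at 393 (353 to 435) in mutant and 403 (375 to 434) in WT POMC cells, -0.04 (-0.23 to 0.14). In other clusters nr3c1 had log2 ratios of 0.17 (-0.002 to 0.35) where gh1 was highest, -0.20 (-0.80 to 0.37) where prl was highest and -1.15 (-2.03 to -0.38) in the gonadotrope-like cluster, the last from 15 mutant and 130 WT UMIs and past 2-fold lower, beside 9.34% of the genes of that cluster past 2-fold higher and 14.6% lower.

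Of the POMC lineage factors 1 of 7 tested, tbx19, was past 2-fold higher in mutant POMC cells (log2 1.07 (0.64 to 1.50)), with 105 CPM in mutant and 50.2 in WT cells. The list had a median log2 ratio of 0.75, beside 0.00 over all genes, with neurod1 at 0.79 and pitx3 at -0.46. Its median was also above 0 in other hormone cells. It was 0.79 where gh1 was highest, beside 0.39 over all genes there, 0.45 where prl was highest and 0.31 in the gonadotrope-like cluster. In the pomca cluster alone tbx19 was at 0.90, within 2-fold, and nr4a1, an immediate early nuclear receptor gene, at 1.50, past it, beside 4.64% of 5533 genes past 2-fold higher and 4.81% lower there. pcsk1 was at 282 CPM in mutant and 148 in WT POMC cells (log2 0.93) and pcsk2 at 58.6 and 152 (log2 -1.38, past 2-fold lower), beside 5 oacyl-positive cells among the mutant and 32 among the WT POMC cells. pax7a, like pcsk2 found mostly in oacyl-positive cells, was higher in mutant cells, at 236 and 126 (log2 0.91). The part of the number of oacyl-positive cells in these ratios was not tested. The gene ENSDARG00000077045, listed as a second scg5, had 0 UMIs in mutant and 465 in WT POMC cells, at least 79.7-fold lower against a floor of 3 counts. This difference was not particular to POMC cells. In mutant and WT cells it had 5 and 101 UMIs where gh1 was highest, 0 and 47 where prl was highest and 0 and 307 in the gonadotrope-like cluster. The other scg5 had 1909 mutant and 3166 WT UMIs, and how the counting divided reads between them was not tested. hsd11b2 was at 689 in mutant and 356 in WT POMC cells (log2 0.95 (0.79 to 1.11)), nr3c2 at 304 and 177 (log2 0.78 (0.54 to 1.02)), and none of the 7 tested glucocorticoid receptor partners and response genes was past 2-fold. fkbp5 was at 0.16 over all POMC cells and -1.18 in the pomca cluster, where it had 21 mutant and 80 WT UMIs.

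**Figure D5:**
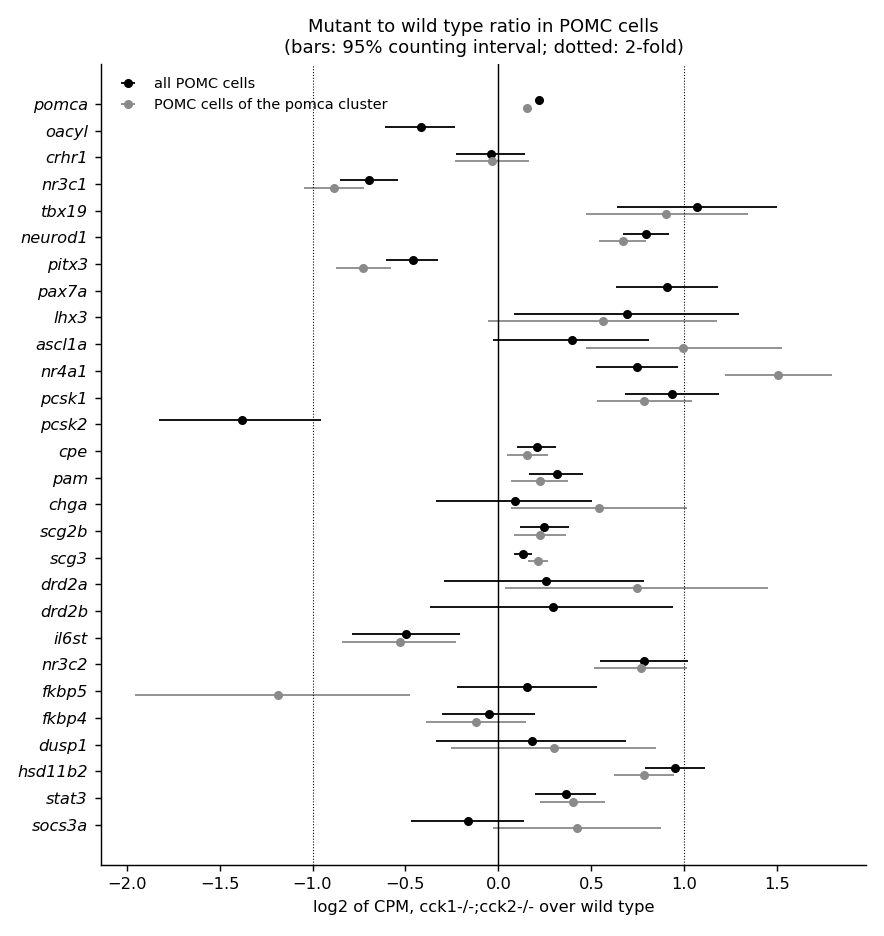
Log2 ratio of CPM, mutant over WT (horizontal axis), for the members and the listed genes other than scg5 with 50 or more UMIs in POMC cells (rows), over all POMC cells (black) and over POMC cells of the pomca cluster (grey), with bars for 95% counting intervals and dotted lines at 2-fold. nr3c1 lies at -0.70 and -0.88 and crhr1 at -0.04 and -0.03.

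Genes with the pattern most like each member over clusters are a description, from Pearson correlations of log2(CPM + 10) over 23 mutant and 26 WT clusters of 20 cells or more, averaged over the libraries and computed for 13175 genes. For pomca they were npffr1l2 (0.82), aldh1a3 (0.82), gad2 (0.80), pcsk1 (0.79) and si:dkey-14d8.6 (0.78). For oacyl they were vax1 (0.96), smtla (0.93), pax7a (0.89), GALR1 (0.83) and ENSDARG00000117241 (0.79). Within cluster 14 smtla and GALR1 were at or near 0 in the oacyl-positive POMC cells. GALR1 had 0 mutant and 1 WT UMIs in those cells and 76 and 113 in the rest of the cluster. Outside cluster 14, 1 WT oacyl-positive POMC cell of cluster 12 held 36 smtla UMIs beside 33 oacyl UMIs. That cell had 42369 UMIs, of which pomca made up 1.01%, just over the limit. Whether its droplet held more than 1 cell was not tested. vax1 was at 249 and 502 CPM in the mutant and WT POMC cells of cluster 14 and at 173 and 159 in its other cells. For crhr1 the nearest was ugt2a1 (0.79), and the others, ADGRB3, dapk1, osbpl9 and atp1a3a, lay at 0.77 each. For nr3c1 the values were lower, from 0.66 for mef2d to 0.70 for si:ch211-230g15.5, with exosc10, nab1a and ttc27 between them. pomcb and avpr1ab had too few UMIs to be compared.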

How the data were processed

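Droplet single-cell libraries of dissociated pituitaries were deposited as matrices of UMI counts per gene and barcode. The authors made these counts with Cell Ranger against GRCz11, and Seurat is named in the submitters' processing notes. Parameters are not given in the sources used here. Barcodes in the files are 20 bases long. No normalized values were used.

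Barcodes with 200 or more genes and at most 20% mitochondrial UMIs were kept, and the highest Scrublet scores were removed at 0.8% per 1000 barcodes (107 mutant and 212 WT), because the automatic threshold marked 0%. Both libraries were clustered together (2000 variable genes, 30 components, 20 neighbours, Leiden resolution 1; scanpy 1.11.5, leidenalg 0.10.2) without hormone, member, cck, cck receptor and mitochondrial genes. Counts were summed per library and cell class and divided by all UMIs of the class (CPM, counts per 1000000), with exact Poisson, conditional (ratios) and Clopper-Pearson (shares) 95% intervals. A gene was tested, and past 2-fold counted, from 50 UMIs, and floors are 3 counts. With 1 library per group no p-value was computed. The code for ratios was tested on simulated Poisson counts, which had no spread between cells.

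A cluster was named "-like" where at least 3 markers of 1 type were in 10% or more of its cells at 2-fold or more at least 1 was among its top 10 genes, no other type had as many markers, and no other had more in the top 10. The named genes were the 6 members, the 5 genes most like each member with 50 UMIs per library, and the genes of the 4 lists that reached 10 UMIs in POMC cells. GALR1, dio2 and cluster leaders were chosen after their values were seen. Members and lists were chosen with earlier results of these data known. Of 54 listed symbols, 53 were found, as 56 listings. Alternatives covered the pomca limit, cell filters, doublets, depth, scaling and clustering.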

Additional observations from a re-analysis of the deposited data

How the results depend on the processing

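None of the values compared here was counted as reversed under an alternative run. The choice of cells did change a sign elsewhere. The log2 ratio of fkbp5 between the libraries was 0.16 over all POMC cells and -1.31 in the oacyl-negative ones. Of 87 values of the main results 70 stayed within their counting interval and 17 moved, and of 94 values of single genes 63 stayed and 31 moved. The POMC cell share was 3.51% in the mutant and 9.24% in the WT library at a limit of 0.5% pomca, 1.77% and 2.41% at 5%, and 4.14% and 9.02% with 500 genes per cell or more. Without the shallow and the macrophage or microglia-like cluster, an alternative chosen after seeing the data, the WT share was 4.0%. The share of WT POMC cells with oacyl was 8.02% at the 0.5% limit. The log2 ratio of nr3c1 between the libraries was -0.88 in the pomca cluster alone, also chosen after seeing the data. Genes past 2-fold between libraries made up 21.7% instead of 9.95% when genes from 10 UMIs were counted. At Leiden resolution 2 pomca in its highest cluster was 134185 in mutant and 81154 CPM in WT cells, and with doublets kept 78466 in WT cells. Of the 5 genes most like a member, 3 remained for pomca, 2 for crhr1 and 1 for nr3c1 with a pseudocount of 1, and 3 for oacyl from 200 UMIs. The cause of these shifts was not tested. Depth limits the shares of shallow cells and the 5 oacyl-positive mutant cells. No paired analysis was possible because each group has 1 library.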
